A study of Mus musculus with 5 samples.

Results

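The transcripts described here were those of 10 genes, out of 32285 gene features in the expression matrices, that encode regulators of epithelial cell identity. They are the grainyhead-like factors *Grhl1*, *Grhl2* and *Grhl3*, the splicing regulators *Esrp1* and *Esrp2*, the zinc finger repressors *Ovol1* and *Ovol2*, and the epithelium-specific ETS factors *Ehf*, *Elf3* and *Elf5*. They were chosen by symbol, and all 10 were found. They were read in single cells from 5 mouse synovial sarcomas (SyS), a soft tissue tumor that can form spindle cells alone or spindle cells together with glands. All 5 tumors arose in *hSS2* mice, which carry the human *SS18::SSX2* fusion as a conditional allele at *Rosa26*, after TATCre protein was injected into the limb in early postnatal life, and each was harvested at morbidity. The labels gave 2 tumors as BP (biphasic), 1 as MP (monophasic), 1 as MP+BP and 1 as PD+MP (PD, poorly differentiated), names read from sections of adjacent tissue. Hence 3 tumors had BP in the label and 2 did not. Every tumor expressed the fusion, no tumor without it was in the series, and 3 of the 4 labels rested on 1 tumor. The 2 BP labels share a leading number, and whether both came from 1 animal was not given in the sources used here.

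Grainyhead-like factors bind DNA at a palindromic site and open and activate epithelial enhancers and promoters, with E-cadherin, claudins and *Epcam* among the genes known to follow them. Esrp proteins steer exon choice in messages such as *Fgfr2*, *Cd44* and *Ctnnd1* toward the epithelial isoform, and Ovol proteins repress *Zeb1* and other mesenchymal factors, which in turn repress the epithelial genes at E-boxes. Ehf, Elf3 and Elf5 belong to a small ETS branch active in glands, skin appendages and airway. The libraries read the 3′ ends of messages, so exon choice itself was not measured.

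The promoter sequences are shown to make these 2 kinds of site visible at *Epcam*, the epithelial adhesion gene that serves below as the readout in single cells, and at members of the set. Each is the 250 bases before the start of the RefSeq transcript (GRCm38.p6), with capitals marking the grainyhead core ACCGGT, which is its own reverse complement, and the E-box CACCTG on either strand (CAGGTG on the other). RefSeq windows were at hand for *Epcam* and for 5 of the 10 members.
Epcam, chr17:87635729-87635978, plus strand: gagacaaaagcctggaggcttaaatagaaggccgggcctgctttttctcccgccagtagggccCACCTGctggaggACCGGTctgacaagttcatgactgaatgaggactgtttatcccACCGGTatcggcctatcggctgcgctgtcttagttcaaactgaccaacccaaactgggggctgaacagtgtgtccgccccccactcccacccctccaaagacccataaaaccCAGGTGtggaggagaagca
Grhl3, chr4:135573633-135573882, minus strand: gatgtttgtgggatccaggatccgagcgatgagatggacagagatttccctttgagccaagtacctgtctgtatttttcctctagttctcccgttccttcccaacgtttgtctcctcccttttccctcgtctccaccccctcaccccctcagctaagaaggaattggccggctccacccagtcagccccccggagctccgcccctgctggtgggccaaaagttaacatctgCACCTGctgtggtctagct
Ovol2, chr2:144331363-144331612, minus strand: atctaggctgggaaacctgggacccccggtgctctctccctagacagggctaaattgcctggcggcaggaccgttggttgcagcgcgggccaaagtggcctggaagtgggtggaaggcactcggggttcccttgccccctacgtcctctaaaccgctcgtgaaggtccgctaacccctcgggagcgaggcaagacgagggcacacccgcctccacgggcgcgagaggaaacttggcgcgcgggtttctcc
The *Epcam* window held the grainyhead core at 2 places, with the first base 174 and 131 bases before the start, and the E-box at 2 places, 187 and 19 bases before it. The *Grhl3* window held 1 E-box, 19 bases before the start, and the *Ovol2* window held neither motif. That *Ovol2* window lies inside the annotated gene (144305175 to 144332146), whose own start is further upstream. The *Elf3* window held 1 E-box, and 1 *Elf5* window held 3. No window of *Grhl1*, *Grhl3*, *Ovol2*, *Elf3* or *Elf5* held the grainyhead core. Of the 32851 windows of this length in the RefSeq table, 1.86% held the core and 17.2% held the E-box. These are matches of letters, and binding was not measured.

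Across the 5 tumors, 39559 cells were kept out of 51670 called cells, with 89996321 to 118649103 unique molecular identifiers (UMIs, counted messages) per tumor. Clusters were named from marker lists, and 27849 cells in 13 clusters (70.4% of the kept cells, 62.7% to 79.1% by tumor) were SyS-like, named from *Sox2*, *Tle1*, *Zic1* and other genes of the tumor cells. Another 2958 cells (7.48%) stayed unnamed, from 3.11% in MP to 15.1% in MP+BP, and 2632 of these lay in 2 clusters in which SyS genes stood beside fibroblast genes. Called cells of different tumors shared 15 to 33 barcodes per pair of libraries. Levels are given as CPM, the UMIs of a gene divided by all UMIs of the class and scaled to 1000000, with an exact 95% Poisson interval where one is given. The intervals cover counting error only. A 3′ count is not divided by message length and a gene's yield differs between genes, so levels are compared between tumors or classes for 1 gene and never between genes. In a sum over cells, fewer expressing cells and fewer messages per cell cannot be told apart.

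*Grhl2* and *Esrp1* were highest in the SyS-like cells of MP+BP and lowest in those of PD+MP. *Grhl2*, the grainyhead-like factor of simple epithelia, reached 12.1 CPM in BP replicate 1, 8.50 CPM in BP replicate 2, 7.40 CPM in MP, 22.3 CPM in MP+BP and 0.567 CPM in PD+MP. The interval of MP+BP (21.2 to 23.5) lay above that of every other tumor and the interval of PD+MP (0.405 to 0.771) below, whereas those of BP replicate 2 (7.90 to 9.14) and MP (6.80 to 8.05) overlapped. *Esrp1*, the major epithelial splicing regulator, stood at 16.001 CPM in BP replicate 1, 12.9 CPM in BP replicate 2, 3.39 CPM in MP, 26.7 CPM in MP+BP and 2.52 CPM in PD+MP. The lowest of the 3 tumors with BP in the label was well above the higher of the other 2.

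The other members did not all share this order. *Grhl3*, the grainyhead-like factor of the epidermal barrier, was at 14.3 and 10.2 CPM in the 2 BP tumors, 7.28 CPM in MP, 12.5 CPM in MP+BP and 5.67 CPM in PD+MP. *Grhl1*, known for its control of desmosomal genes, was the most even, from 5.08 CPM in MP to 10.8 CPM in BP replicate 1. *Esrp2*, the second Esrp paralog, followed *Esrp1* at lower counts, with 2.22, 1.51, 1.303, 3.28 and 0.326 CPM in BP replicates 1 and 2, MP, MP+BP and PD+MP. *Ovol2*, a repressor of *Zeb1*, was at 5.29, 3.60, 2.02, 9.06 and 2.71 CPM in the same order, and its paralog *Ovol1* at 3.20, 1.503, 0.864, 1.61 and 0.425 CPM. The Ovol genes thus peaked in different tumors, *Ovol2* in MP+BP and *Ovol1* in BP replicate 1.

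The 3 ETS factors were scarce and each was highest in a different tumor. *Ehf* was at 0.933 CPM in BP replicate 1, 1.79 CPM in BP replicate 2 and 0.491 CPM in MP+BP. It had 2 UMIs in MP and 0 UMIs in PD+MP, which allows a level of up to 0.0425 CPM (3 counts of the total). *Elf3* went the other way, with 393 UMIs and 5.57 CPM in PD+MP against 1.71, 0.757, 0.253 and 0.276 CPM in BP replicates 1 and 2, MP and MP+BP. *Elf5*, best known from the mammary gland, did not exceed 0.793 CPM, reached in BP replicate 1. *Epcam* itself did not follow *Grhl2* or *Esrp1* across tumors, at 178 and 200 CPM in the 2 BP tumors, 95.1 CPM in MP, 78.1 CPM in MP+BP and 100.1 CPM in PD+MP. The tumor highest in *Grhl2* and *Esrp1* was the lowest in *Epcam*.

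**Figure D1:**
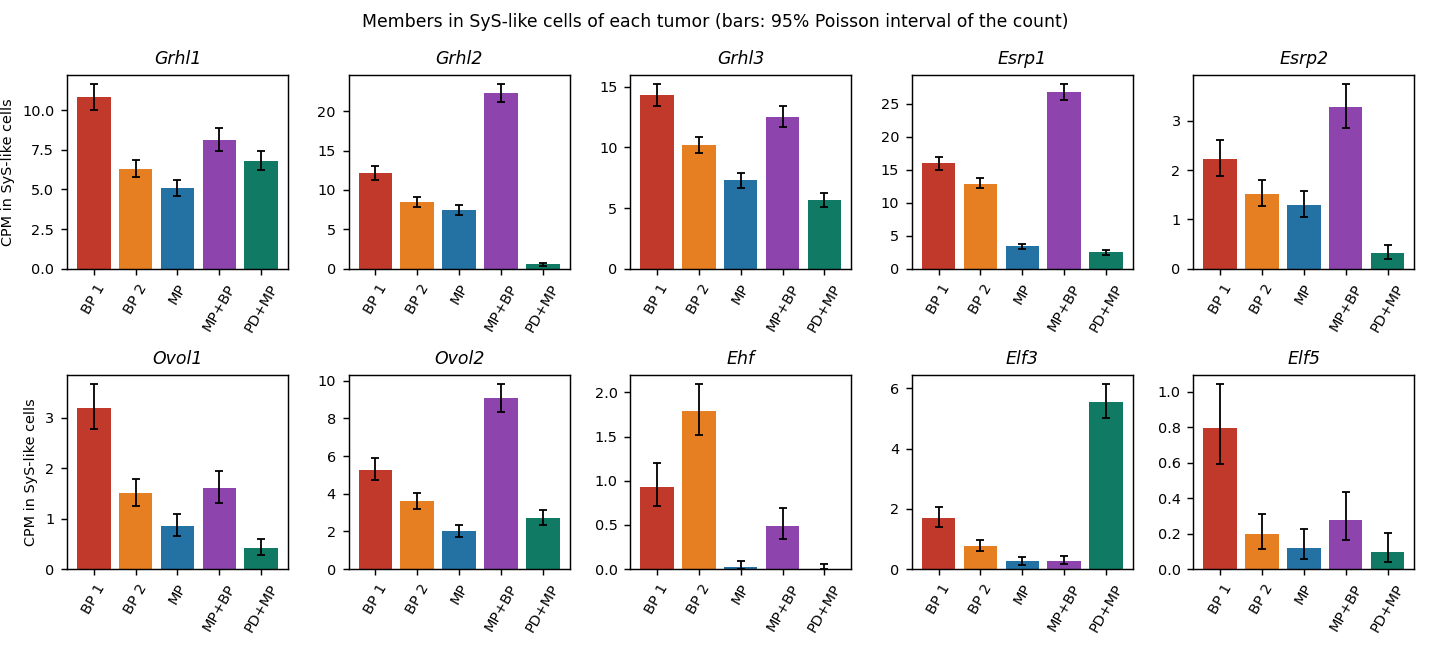
Each panel plots 1 gene's level in SyS-like cells (CPM, linear axis from 0) in the 5 tumors, with bars for the 95% Poisson interval of the count. *Grhl2* stands at 22.3 CPM in MP+BP and 0.567 CPM in PD+MP, while *Elf3* is highest in PD+MP, at 5.57 CPM, and does not exceed 1.71 CPM elsewhere.

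The first comparison asked whether the members differ between tumors whose label names a biphasic part and those whose label does not. *Esrp1* averaged 18.6 ± 7.26 CPM (SD, n = 3) with BP in the label and 2.96 ± 0.614 CPM (SD, n = 2) without. *Grhl3* averaged 12.3 ± 2.06 against 6.47 ± 1.14 CPM, *Ovol2* 5.98 ± 2.80 against 2.36 ± 0.484 CPM, *Ovol1* 2.11 ± 0.952 against 0.644 ± 0.310 CPM and *Grhl2* 14.3 ± 7.15 against 3.99 ± 4.83 CPM. In 8 members (*Grhl2*, *Grhl3*, *Esrp1*, *Esrp2*, *Ovol1*, *Ovol2*, *Ehf* and *Elf5*) all 3 tumors with BP lay above both others. *Grhl1* and *Elf3* overlapped, and no member lay wholly the other way. Among all 20645 genes tested, 15.5% lay above without overlap and 10.1% below. These counts go by level alone, and the counting intervals of BP replicate 2 and MP overlapped for *Grhl2*, *Esrp2* and *Elf5*. Those of *Esrp2* were 1.27 to 1.80 and 1.06 to 1.59 CPM, and *Elf5* rested on 17 and 9 UMIs.

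None of these differences passed edgeR's quasi-likelihood test, which called 0.0% of all genes (before adjustment, 981 genes had a higher and 901 a lower level with a p under 0.05). On the log2 scale, *Esrp1* differed by 2.56 (SE 0.40, adjusted p = 0.49) and *Ehf* by 6.09 (SE 1.21, adjusted p = 0.54), the latter against 2 UMIs in the other side. The fit gave 1.77 for *Grhl2* (SE 1.03), 1.24 for *Ovol2* (SE 0.47) and 0.84 for *Grhl3* (SE 0.27), with adjusted p = 0.62, 0.54 and 0.54. DESeq2 on the same sums called *Esrp1* (2.57, adjusted p = 4.7e-07) and *Ehf* (6.27, adjusted p = 4.6e-04) among the 1.89% of genes it called higher. *Elf3* was at -1.78 (SE 1.26, edgeR adjusted p = 0.67), a sign set by 1 tumor, since without PD+MP it was at 1.83. Without MP, *Grhl2* was at 4.56 (edgeR adjusted p = 0.053), with PD+MP as the lone tumor on its side, assumed to vary like the others. With 3 tumors against 2, the p-values measure the spread between these tumors only.

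The wider lists gave the same absence of calls with edgeR. Of 32 genes of the epithelial program, 30 were tested and 22 had a positive difference, with a median of 0.33 beside -0.03 over all genes. Among the widest were *Cdh1*, which encodes E-cadherin (3.42), and *Rab25* (3.15). Among the 8 opposing mesenchymal factors the median was -0.44, with *Twist2* at 2.09, *Prrx1* at -1.13 and *Twist1* at -0.70, and among 12 tested relatives and fellow exon regulators the median was -0.06, led by *Rbm47* (1.01), *Elf4* (0.83) and *Spdef* (0.26). Markers of other cells varied within the SyS-like sums as well. The summed fibroblast markers were at 108, 113, 182, 550 and 55.4 CPM in BP replicates 1 and 2, MP, MP+BP and PD+MP. The summed keratinocyte markers were at 58.9, 64.7, 9.77, 40.8 and 49.97 CPM, with *Krt5* at 0 in all 5 tumors, and the mammary markers did not exceed 0.877 CPM, with *Csn2* at 0 in all 5. The summed pericyte markers were at 127, 152, 56.5, 81.0 and 34.0 CPM and so lay above, without overlap, in the tumors with BP in the label, as the 8 members did. The summed endothelial markers were at 248, 133, 161, 225 and 125 CPM. The part of these cells in the members' levels was not tested.

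The second comparison set the SyS-like cells against the stromal cells (fibroblast-like and pericyte-like) of the same tumor, 166 to 533 cells per tumor. *Esrp1*, *Esrp2*, *Grhl3* and *Grhl1* were higher in SyS-like cells, whereas *Grhl2*, *Ovol1* and *Ovol2* did not pass the test. *Esrp1* had 0, 2, 0, 2 and 0 stromal UMIs in BP replicates 1 and 2, MP, MP+BP and PD+MP, and *Grhl3* had 1, 1, 1, 2 and 1. Over all tumors *Esrp1* summed to 4332 UMIs in SyS-like cells and 4 in stromal cells, a ratio of CPM of 21.3 (95% interval 8.33 to 78.4). *Grhl3* had 3571 and 6 UMIs, a ratio of 11.7 (5.38 to 31.98).

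*Grhl2* was different from its paralog. Its stromal level was 5.07, 8.85, 5.11, 3.06 and 0.733 CPM in BP replicates 1 and 2, MP, MP+BP and PD+MP, so that SyS-like cells were above stromal cells in 3 of 5 tumors. In BP replicate 2 and PD+MP the stromal levels rested on 6 and 1 UMIs. Their counting intervals (3.25 to 19.3 and 0.0186 to 4.08 CPM) included the SyS-like levels. It had 31 stromal UMIs in all, and the ratio of summed CPM was 2.27 (1.60 to 3.35). Its level was 4.71 CPM in pericyte-like (interval 3.104 to 6.85) and 2.84 CPM in fibroblast-like cells (0.773 to 7.27), with overlapping intervals. The pericyte-like cells also held 32 UMIs of *Epcam* and 3 of *Esrp1*. *Ovol1* had 13 stromal UMIs and was higher in SyS-like cells in 1 of 5 tumors (ratio 0.814, interval 0.472 to 1.54). *Ovol2* was higher in SyS-like cells in 5 of 5 tumors, with 8 stromal UMIs in all.

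In edgeR with the tumor as a block, 7 members passed the filter on low counts and 4 were called higher, beside 17.1% of the 18060 genes tested called higher and 13.4% lower. The log2 differences were 3.88 for *Esrp1* (SE 0.66, adjusted p = 0.0025), 3.15 for *Grhl3* (SE 0.43, adjusted p = 7.7e-04), 1.85 for *Grhl1* (SE 0.41, adjusted p = 0.0092) and 3.25 for *Esrp2* (SE 0.98, adjusted p = 0.035). *Esrp2* had a single stromal UMI, and its call was lost on leaving out any tumor but PD+MP, with DESeq2 (2.39, adjusted p = 0.072), without the tumor block and with at least 1500 genes per cell. *Ovol2* (1.71, adjusted p = 0.083), *Grhl2* (0.72, adjusted p = 0.27) and *Ovol1* (-0.55, adjusted p = 0.50) were not called. *Ehf*, *Elf3* and *Elf5* were not tested, with 1, 1 and 3 stromal UMIs. With doublets kept, the log2 difference was 1.97 for *Esrp1* (adjusted p = 0.040) and 1.88 for *Grhl3* (adjusted p = 0.015), in a clustering that left 1878 SyS-like cells in MP+BP. Without scaling beyond total counts, which moved the median of all genes by 0.25, *Ovol2* was called as well (1.98, adjusted p = 0.040), and 71.4% of called genes were higher against 56.0% in the scaled fit.

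The genes around the members separated more widely. Of the 32 epithelial program genes, 26 were tested, 18 were higher in SyS-like cells and 1 lower, with a median log2 difference of 2.93 beside 0.18 over all genes. *Dsp* (desmoplakin) and *Perp* (a desmosomal membrane protein) had no stromal UMI and were at least 27.5-fold and at least 6.42-fold higher, counting 3 UMIs over the group as the floor, and *Cdh1* (4.32) and *Spint1* (4.24) were higher as well. *Jup* (plakoglobin) was lower (-0.89). All 8 mesenchymal factors were tested and 6 were lower, with a median of -3.39 and *Foxc2* (-6.69), *Zeb2* (-3.72), *Prrx1* (-3.47) and *Snai1* (-3.46) the widest. Of 12 relatives, 2 were higher, *Tfcp2l1* (2.29) and *Rbm47* (1.91), and 4 were lower, *Mbnl1* (-1.43), *Elf2* (-1.13), *Elf1* (-0.94) and *Rbfox2* (-0.49).

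**Figure D2:**
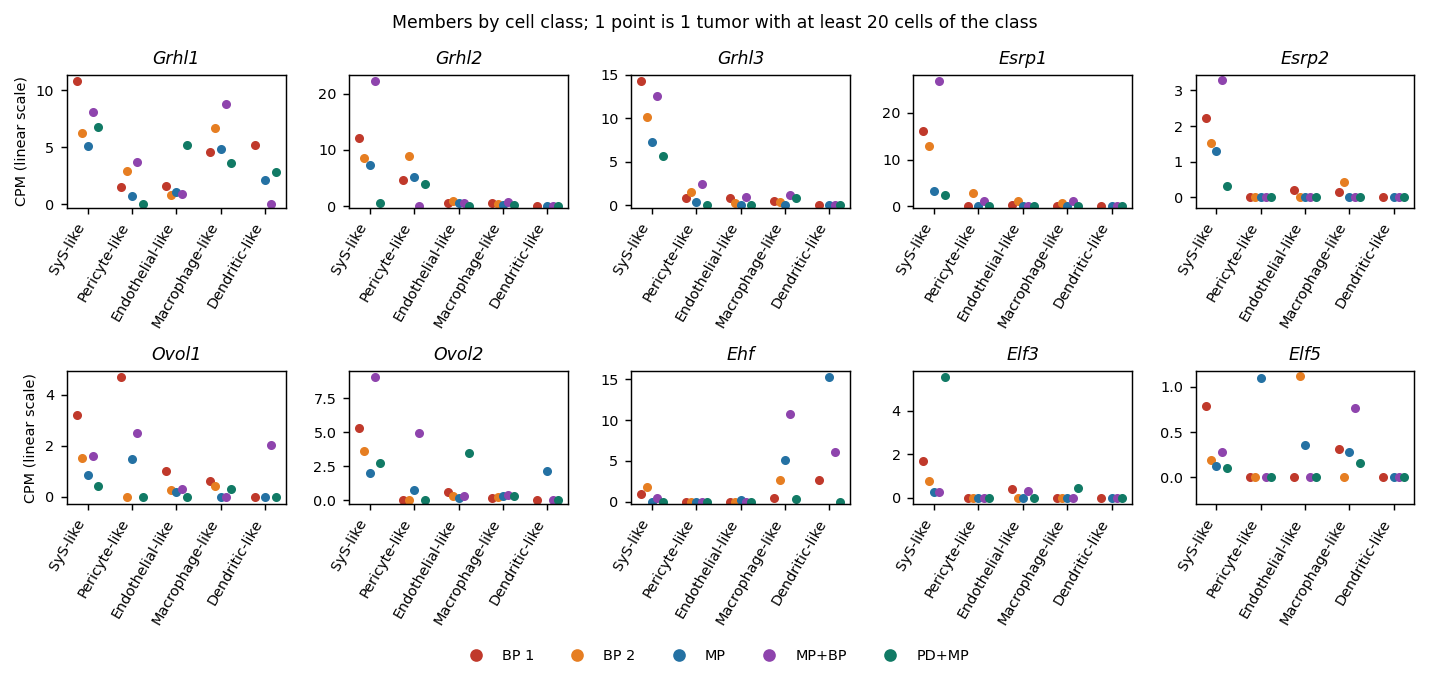
Each panel plots 1 member's level (CPM, linear axis) in 5 cell classes, with 1 point for each tumor that held at least 20 cells of the class. *Esrp1* and *Grhl3* are highest in SyS-like cells, and *Grhl2* also reaches 8.85 CPM in pericyte-like cells, from 6 UMIs in BP replicate 2. *Ehf* reaches 10.7 CPM in macrophage-like and 15.2 CPM in dendritic-like cells of single tumors, against at most 1.79 CPM in SyS-like cells.

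Against endothelial-like cells, 8 members were higher in SyS-like cells (edgeR, 30.3% of all genes higher), including *Esrp1* (5.01), *Grhl2* (3.90, SE 0.36, adjusted p = 1.7e-05) and *Ovol1* (1.80, adjusted p = 0.0067). Against macrophage-like cells, 6 members were higher, beside 36.2% of genes, among them *Esrp1* (4.23) and *Grhl2* (3.72). *Ehf* was lower, beside 26.6% of genes (-3.49, SE 1.16, adjusted p = 0.023), and *Grhl1* was at -0.19 (SE 0.28, adjusted p = 0.58). The macrophage-like level of *Ehf* was 0.461, 2.73, 5.11, 10.7 and 0.313 CPM in BP replicates 1 and 2, MP, MP+BP and PD+MP, and that of *Grhl1* 4.61, 6.72, 4.83, 8.78 and 3.60 CPM. The macrophage-like counts of *Ehf* were 3, 13, 18, 28 and 2 UMIs, at or under the floor of 3 counts in BP replicate 1 and PD+MP. Dendritic-like cells held 11 UMIs of *Ehf* and 133 of *Epcam*, and none of *Grhl2*, *Grhl3*, *Esrp1*, *Esrp2*, *Elf3* or *Elf5*. In these 315 cells, 0 UMIs allows a level of up to 1.43 CPM (3 counts of the total). That is above the SyS-like level of *Elf5* over all tumors (0.281 CPM) and near those of *Esrp2* (1.68 CPM) and *Elf3* (1.67 CPM).

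Within the SyS-like cells, the members varied between clusters that were built without them. Cluster 18 (761 cells, 75.8% of them from BP replicate 1) had the highest pooled *Epcam*, at 301 CPM, and *Cdh1*, at 35.9 CPM, with *Grhl2* at 27.7, *Esrp1* at 27.8, *Grhl3* at 24.2 and *Esrp2* at 5.15 CPM. Its cells differed by tumor of origin. The 171 cells from MP+BP had *Esrp1* at 77.8, *Grhl2* at 61.5, *Ovol2* at 18.3 and *Ehf* at 5.92 CPM, with *Epcam* at 637 and *Cdh1* at 62.7 CPM. The 577 cells from BP replicate 1 had *Esrp1* at 13.9, *Grhl2* at 18.4, *Ovol2* at 4.92 and *Ehf* at 0.167 CPM, with *Epcam* at 208 and *Cdh1* at 28.9 CPM. Cells that clustered together thus held different amounts of the regulators in the tumors that supplied them.

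Cluster 9 was mixed as well, with 1988 cells of which 52.1% came from MP+BP. It had *Grhl2* at 26.8, *Esrp1* at 24.6 and *Grhl3* at 15.6 CPM, and its 113 cells from BP replicate 1 had *Grhl2* at 40.6 and *Grhl3* at 47.4 CPM. Cells of cluster 9 were shallow, with a median of 2205.5 UMIs, and all of them together held 136 UMIs of *Grhl2* and 79 of *Grhl3*. The levels of the 113 cells thus rest on few UMIs. Cluster 13 (1331 cells, 99.7% from MP+BP) had the highest pooled *Esrp1*, at 31.8 CPM, and *Ovol2*, at 9.95 CPM. The 3 clusters of PD+MP (4, 10 and 14) had *Grhl2* at 0.888, 0.507 and 0 CPM, the last from 0 of 23005984 UMIs, and *Elf3* at 5.33, 8.44 and 5.26 CPM. The lowest *Epcam* among the SyS-like clusters was in cluster 6 of MP+BP, at 28.7 CPM, where *Grhl2* was at 21.6 and *Esrp1* at 20.7 CPM. High *Grhl2* and *Esrp1* were therefore found both with the highest and with the lowest *Epcam*.

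Over 21 sums of at least 100 cells by cluster and tumor, the genes closest to *Esrp1* among 16145 were *Sv2c* (Pearson r = 0.90), *Cabp1* (0.90), *Slpi* (0.88), *Ovol2* (0.88) and *Rasgrf1* (0.87). Those closest to *Grhl2* were *Ntn4* (0.95), *Atp8b1* (0.94), *Ppl* (0.93), *Wwc1* (0.93) and *Cacnb2* (0.92). *Grhl2* and *Esrp1* had r = 0.86 with each other, whereas *Epcam* had 0.075 with *Grhl2* and 0.17 with *Esrp1*, and *Elf3* had -0.60 and -0.37. *Cdh1* had 0.73 and 0.74. The sums share 5 libraries, so these values describe the pattern and carry no test.

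**Figure D3:**
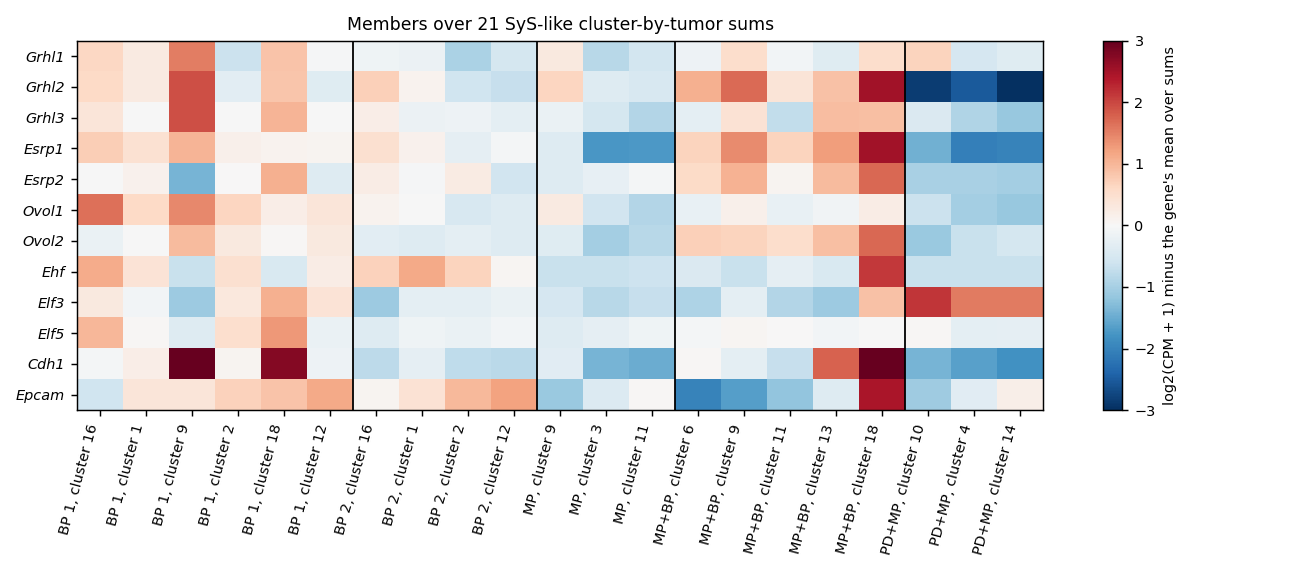
The map shows, for 21 sums of SyS-like cells grouped by tumor, each gene's log2(CPM + 1) minus its mean over the sums, from blue (lower) to red (higher). The cells of cluster 18 from MP+BP are high in *Grhl2*, *Esrp1*, *Ovol2*, *Cdh1* and *Epcam*, and the 3 sums of PD+MP are low in *Grhl2* and high in *Elf3*.

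The third comparison asked whether the members and *Epcam* are found in the same single tumor cells. Deeper cells detect more of every gene, so 24321 SyS-like cells with at least 3000 UMIs were each thinned to 3000 at random, which left out 3528 shallower cells. An *Epcam* UMI was then found in 5993 cells (24.6%), and in 32.8%, 36.0%, 22.6%, 9.27% and 21.4% of those of BP replicates 1 and 2, MP, MP+BP and PD+MP. At this depth a member was found in few cells, *Esrp1* in 2.99% and *Grhl2* in 2.43%. Cells of other classes set a background, which was 1.57% for *Epcam* in macrophage-like and 1.24% in endothelial-like cells thinned alike. *Esrp1* was found in 0.212% and 0.0620% of these, and *Grhl2* in 0.0302% and 0.434%, below the SyS-like shares over all tumors. In PD+MP, however, *Grhl2* was found in 0.136% of SyS-like cells, below its endothelial-like share. *Ehf* was more frequent in macrophage-like (0.816%) than in SyS-like cells (0.230%). *Grhl1* was found in 1.42% of macrophage-like and 1.96% of SyS-like cells. Whether such UMIs came from free messages, doublets or the cells themselves was not tested. The median depth before thinning was 5851 UMIs in macrophage-like, 6808 in endothelial-like and 10320 in SyS-like cells.

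*Esrp1* was found more often in cells with an *Epcam* UMI than in the others in 5 of 5 tumors. The shares were 5.81% against 3.41% in BP replicate 1, 4.03% against 3.08% in BP replicate 2, 1.40% against 1.02% in MP, 15.3% against 4.75% in MP+BP and 1.18% against 0.469% in PD+MP. The mean difference was 3.00 ± 4.31 percentage points (SD, n = 5, two-sided exact sign-flip permutation p = 0.0625, the smallest that 5 tumors allow). MP+BP carried most of it, and without it the mean was 1.11 points. Without thinning the mean difference was 11.4 points for *Esrp1* and 9.44 points for *Grhl2*, between cells of unequal depth (a median of 14646.5 against 7648.5 UMIs in BP replicate 1, for instance). In MP, the gap was small and came from few cells.

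*Grhl2* was found more often beside *Epcam* in 4 of 5 tumors. The shares were 4.46% against 2.51%, 2.88% against 1.69%, 2.31% against 2.37%, 12.7% against 3.998% and 0.455% against 0.0494% in BP replicates 1 and 2, MP, MP+BP and PD+MP. MP showed no gap, and in PD+MP the shares came from 5 of 1100 and 2 of 4052 cells. Both PD+MP shares lay near or below the 0.434% found in endothelial-like cells of all tumors. The mean difference was 2.43 ± 3.57 points (SD, n = 5, exact sign-flip permutation p = 0.125), and 0.871 points without MP+BP. *Esrp2* was higher in 5 of 5 tumors (0.556 ± 0.661 points, exact sign-flip permutation p = 0.0625), although in PD+MP this rested on 1 cell in each arm.

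The mean differences of the remaining members ran from 0.0435 points for *Elf5* to 0.703 points for *Grhl3*, and none was higher in all 5 tumors. The outcome of a random thinning varies for rare genes, so the shares expected over all draws were computed as well. By that measure 4 members were higher beside *Epcam* in 5 of 5 tumors, *Esrp1* (3.60 ± 5.19 points), *Ovol2* (0.621), *Ovol1* (0.368) and *Elf3* (0.200). In MP the difference was 0.358 points for *Esrp1*, but 0.0013 for *Ovol2*, 0.0012 for *Ovol1* and 0.0035 for *Elf3*, close to a tie. The share of all genes that were higher in every tumor was not computed. *Grhl2* was at 2.47 ± 3.73 points in 4 of 5 tumors and *Esrp2* at 0.447 points in 4 of 5. In MP, the expected share of *Grhl2* was 1.95% with *Epcam* and 2.20% without. *Esrp1* was hence the member that was higher in all 5 tumors by both measures. In the other two random draws it was higher in 5 and in 4 of 5 tumors.

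**Figure D4:**
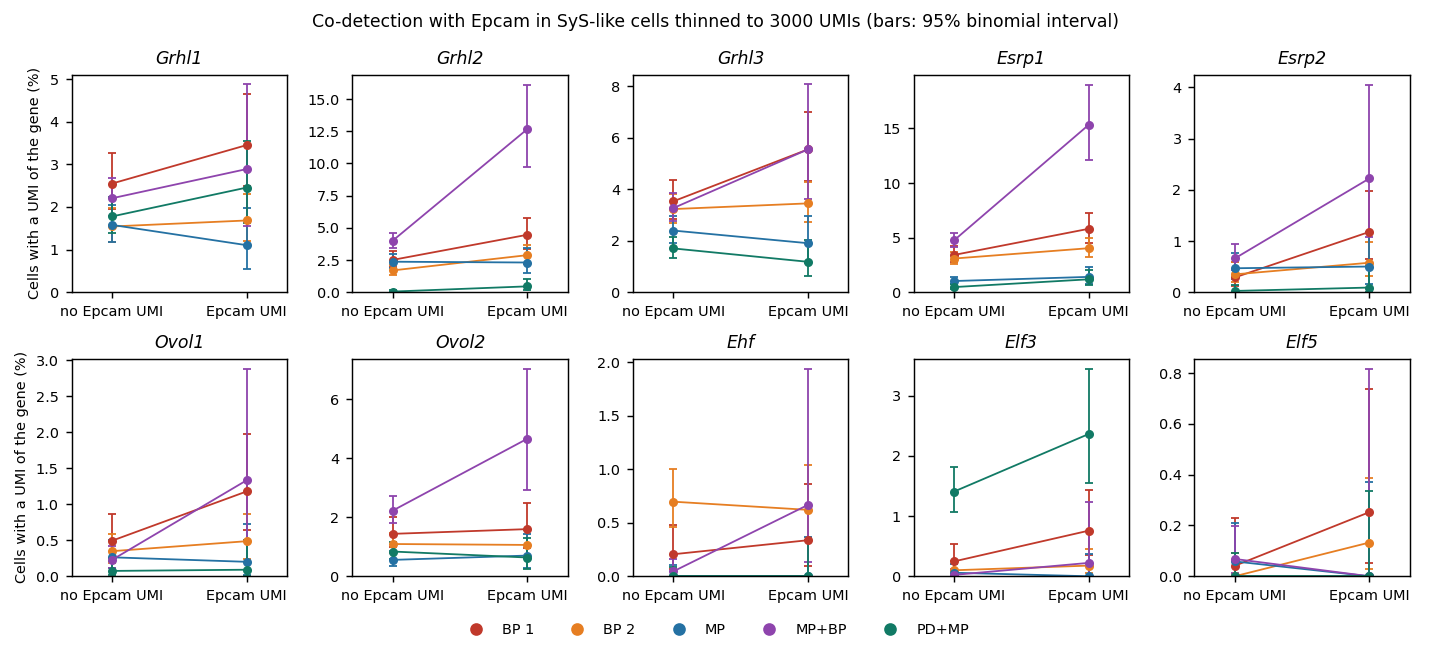
Each panel plots, for 1 member, the percent of SyS-like cells thinned to 3000 UMIs that hold at least 1 of its UMIs, without and with an *Epcam* UMI in the same cell, with 1 line per tumor and bars for the 95% binomial interval. *Esrp1* goes up in all 5 tumors and most in MP+BP, from 4.75% to 15.3%, while *Grhl2* is level in MP, at 2.37% and 2.31%.

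The shares of both genes grew with the amount of *Epcam* when averaged over tumors. Cells with 0, 1, 2 and 3 or more *Epcam* UMIs (18328, 4071, 1104 and 818 cells) held *Esrp1* in 2.55%, 3.91%, 5.26% and 12.7% and *Grhl2* in 2.12%, 3.04%, 4.67% and 10.3%. In MP+BP the step from 0 to 3 or more UMIs was from 4.75% to 34.1% for *Esrp1* and from 3.998% to 30.7% for *Grhl2*. MP did not share it, with *Esrp1* in 0 of 82 and *Grhl2* in 1 of 82 cells with 3 or more *Epcam* UMIs, although 0 of 82 allows a share of up to 3.66%. In PD+MP the top step rested on 7 and 4 of 70 cells.

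**Figure D5:**
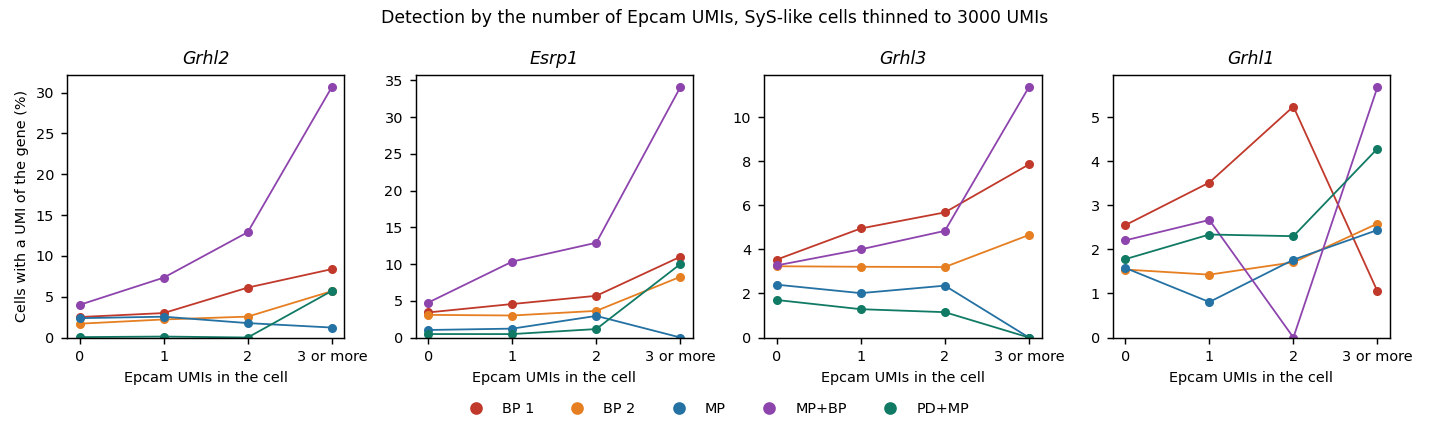
Each panel plots, for *Grhl2*, *Esrp1*, *Grhl3* and *Grhl1*, the percent of thinned SyS-like cells with a UMI of the gene by the number of *Epcam* UMIs in the cell, with 1 line per tumor. *Grhl2* and *Esrp1* reach 30.7% and 34.1% in MP+BP at 3 or more *Epcam* UMIs, and MP stays at 1.22% and 0%.

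Summed over the thinned cells and tested in edgeR with the tumor as a block, *Esrp1*, *Grhl2* and *Esrp2* were higher in cells with *Epcam*. *Esrp1* was at 20.8 against 11.8, 14.2 against 10.9, 5.02 against 3.90, 62.2 against 17.3 and 4.24 against 1.65 CPM in BP replicates 1 and 2, MP, MP+BP and PD+MP, and *Grhl2* at 17.1 against 8.49, 10.5 against 5.97, 7.69 against 8.19, 46.7 against 14.8 and 2.73 against 0.165 CPM. The log2 differences were 0.97 for *Esrp1* (SE 0.18, adjusted p = 0.0015), 1.02 for *Grhl2* (SE 0.21, adjusted p = 0.0035) and 1.18 for *Esrp2* (SE 0.33, adjusted p = 0.038). *Ovol2* (0.28), *Grhl3* (0.22) and *Grhl1* (0.21) were not called, with adjusted p = 0.57, 0.55 and 0.59. Hence 3 of the 6 members tested were called, beside 2.19% of 14613 genes called higher and 2.5% lower. *Ovol1*, *Ehf*, *Elf3* and *Elf5* had too few UMIs to be tested.

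The call of *Esrp1* held in 19 of 20 alternatives (0.60 to 1.56), all but the fit without the tumor block, and that of *Grhl2* in 17 of 20 (0.76 to 1.59). That of *Esrp2* held in 8 of 15 and was lost, among others, without BP replicate 1, MP+BP or PD+MP and in the second draw (0.74, edgeR adjusted p = 0.21). Without MP+BP, *Esrp1* was at 0.60 (adjusted p = 0.0096) and *Grhl2* at 0.76 (adjusted p = 0.0095). Without BP replicate 1 *Grhl2* just missed the threshold (1.02, adjusted p = 0.050), and with DESeq2 it was at 1.24 with an adjusted p = 0.22. When the cells were split within each cluster and tumor, *Esrp1* was at 0.94 and *Grhl2* at 1.09. That fit held only the 17 such pairs with at least 50 cells per arm and takes the clusters of 1 tumor as separate blocks. Without cluster 18, *Esrp1* and *Grhl2* were at 0.84 and 0.90. Before thinning, the cells with *Epcam* had a median of 12674.5, 10261, 10440, 10472 and 10535.5 UMIs and the others 11878, 10132, 11141, 8750.5 and 10107 UMIs in BP replicates 1 and 2, MP, MP+BP and PD+MP.

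Other epithelial genes rose in the same cells. Of 21 tested genes of the epithelial program, 9 were higher in cells with *Epcam* and none was lower, with a median of 0.62 beside -0.01 over all genes. The widest were the claudins *Cldn6* (3.05) and *Cldn7* (2.37), *Cdh1* (2.65) and *Krt8* (1.98), a keratin of simple epithelia. Of 7 tested mesenchymal factors, *Prrx1* (-0.38, adjusted p = 0.010) and *Zeb1* (-0.29, adjusted p = 0.0040) were lower in edgeR, and none was higher. None of the 12 tested relatives was called, led by *Rbm47* (0.41), *Rbfox2* (-0.14) and *Elf2* (-0.13).

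Some pairs of members were found together more often than expected, whereas for most pairs the counting interval included 1. *Grhl1* and *Esrp2*, for instance, shared 0 cells against 2.26 expected. The ratio for pairs of other genes was not computed. *Grhl2* and *Esrp1* were found together in 58 thinned cells where 23.9 were expected from their separate shares in each tumor, a ratio of 2.43 (counting interval 1.84 to 3.14) that was above 1 in 5 of 5 tumors. *Esrp1* and *Ovol2* shared 21 cells against 11.96 expected (1.76, interval 1.09 to 2.68), and *Esrp1* and *Ovol1* shared 10 against 3.01 (3.32, interval 1.59 to 6.11), both above 1 in 3 of 5 tumors. *Grhl2* shared 10 cells with *Esrp2* against 3.60 expected (2.78, interval 1.33 to 5.10). With *Elf3* it shared 4 against 0.898 (4.46, interval 1.21 to 11.4), and both ratios were above 1 in 3 of 5 tumors. *Elf3* and *Elf5* shared 1 cell against 0.0225. For *Grhl3* and *Esrp1*, the ratio was 1.41 (0.982 to 1.96). Most cells held none, with 0 members found in 3052, 5501, 4051, 4006 and 4821 cells of BP replicates 1 and 2, MP, MP+BP and PD+MP, and 3 or more in 9, 0, 0, 10 and 2.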

How the data were processed

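Dissociated cells of 5 tumors were read with the 10x Chromium 3′ v3.1 kit. The deposited files hold UMI counts per gene and called cell, which the authors made with Cell Ranger 7.2.0 on mm10 without pooling tumors. Whether intronic reads were counted was not given in the sources used here. The members and gene lists were chosen with earlier results of these data known.

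Cells with at least 750 genes and at most 25% mitochondrial counts were kept. Doublets were the cells with the highest Scrublet scores, up to 0.8% per 1000 cells that passed these filters, since the automatic threshold marked too few, and 2957 were removed. Cells were clustered with scanpy 1.11.5 (3000 genes without the members and lists, 30 components, 20 neighbors, Leiden resolution 1) into 28 clusters, each named from at least 3 markers and its 10 leading genes. How leading genes were measured was changed after a first version left SyS-led clusters unnamed. UMI sums per tumor and class were tested with edgeR 4.0.16 (TMM, filterByExpr, quasi-likelihood, Benjamini-Hochberg over all genes tested, threshold 0.05), with DESeq2 1.42.0 as an alternative. Tumors were the replicates, and nothing states that they came from separate litters.

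For co-detection, each cell was thinned with its own seed, so that it kept its draw in every setting. This was set after a first version in which draws differed between settings. Shares expected over all draws were computed from the hypergeometric chance of keeping a UMI. Exact sign-flip permutation tests over 5 tumors were two-sided. Observed pairs were set against the product of both shares within each tumor. Motifs were searched in 250 bases before RefSeq starts, and gene positions follow the GRCm38 annotation, with *Esrp1* (ENSMUSG00000040728) at chromosome 4, 11331933 to 11386783, *Grhl2* (ENSMUSG00000022286) at chromosome 15, 37233036 to 37363569, and *Grhl3* (ENSMUSG00000037188) at chromosome 4, 135541888 to 135573630. No member overlaps another gene on its own strand. The rule for named genes took all 10 members and *Epcam*, up to 4 called genes per list and direction by size (3 where none was called), and the 5 genes closest to *Esrp1* and to *Grhl2*. One gene that the rule named is not reported here. On simulated counts, genes changed by 2 on the log2 scale were recovered in 67.4% of cases for SyS-like over stromal cells, 37.0% for the biphasic label and 100.0% for the split by *Epcam*. Genes changed by 1 were recovered in 10.1%, 4.08% and 91.0% in the same order, so smaller changes would mostly go uncalled in the first 2. Alternatives for the thinning draw, the unnamed clusters, cluster 18 and the split within clusters were chosen after seeing the data.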

Additional observations from a re-analysis of the deposited data

Results flagged for a closer look

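The MP+BP tumor stood apart from the other 4 in the difference between cells with and without *Epcam* for 3 members, by a gap wider than Dixon's limit for 5 values. Its difference was 10.6 percentage points for *Esrp1*, 8.67 points for *Grhl2* and 2.44 points for *Ovol2*. Chance sets apart about 1 in 20 such groups. The gap depends on the scale, here percentage points. As a log2 ratio of the odds of detection with and without *Epcam*, *Grhl2* was higher in PD+MP (3.02, from few cells) than in MP+BP (1.81). On that scale *Esrp1* was at 1.36 in PD+MP and 1.87 in MP+BP, and *Ovol2* was still highest in MP+BP (1.13). The same tumor had the fewest cells with *Epcam* (9.27%), the highest *Grhl2*, *Esrp1* and *Ovol2* levels in SyS-like cells, and the highest summed fibroblast markers in them (550 CPM). The part of these in the differences was not tested.

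*Grhl3* differed in opposite directions with *Epcam* by label in 1 thinning draw. It was found more often beside *Epcam* in all 3 tumors with BP in the label, by 1.51 points on average, and less often in both others, by -0.506 points on average. This did not hold over all draws, where PD+MP was at 1.81% with *Epcam* and 1.72% without, nor without thinning, where all 5 tumors were higher. The difference between the labels was not tested.

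The 2 clusters that stayed unnamed although SyS genes led their markers, and that enter no comparison above, held members at levels at or above the highest pooled SyS-like cluster, with overlapping counting intervals. *Grhl2* was at 28.4 CPM (interval 26.1 to 30.9) in cluster 8 (2279 cells, 44.2% from MP+BP), beside 27.7 CPM (25.1 to 30.4) in cluster 18, and at 39.2 CPM (26.7 to 55.7) in cluster 19 (353 cells, 64.0% from MP+BP, median 1903 UMIs). Cluster 19 also held *Esrp2* at 8.86 CPM, from 7 UMIs, and *Ovol1* at 5.06 CPM, from 4 UMIs. Cluster 8 had *Mgp*, *Col1a1* and *Col3a1* among its leading genes.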

How the results depend on the processing

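Limits came first from counts. The stromal sums held 1 to 31 UMIs of a member, and the biphasic label set 3 tumors against 2. For single members, the alternatives kept direction and side of the threshold in 96 of 111 values for SyS-like over stromal cells, all but 3 of 120 for the biphasic label, and 98 of 112 for the split by *Epcam*. For co-detection no alternative could pass 0.05, and 138 of 140 values kept their direction. For the biphasic label alone, no paired analysis was possible because replicate numbers do not link tumors of different labels. The other comparisons pair the cells of each tumor.

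For SyS-like over stromal cells, 5021 genes were higher without scaling beyond total counts. Against endothelial-like cells 8 members were called, with 5549 genes higher and 4179 lower, and against macrophage-like cells 7 members, with 6608 higher and 4864 lower. There *Grhl1* turned to -0.19, and *Ovol1* turned to 1.80 (endothelial-like) and 1.62 (macrophage-like). Leaving out 1 tumor gave 2036 (without BP replicate 1) to 3713 genes higher (without PD+MP) and 1885 to 2855 lower. For the biphasic label, DESeq2 called 2 members, 391 genes higher and 87 lower. Leaving out MP, with PD+MP then alone on its side, gave 309 higher and 170 lower, and the range on leaving out 1 tumor was 0 to 309 and 0 to 170. *Elf3* ran from -2.68 without MP to 1.83 without PD+MP.

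For the split by *Epcam*, DESeq2 called 1 member, 158 genes higher and 115 lower, and 762 were lower without a filter. Without the tumor block, edgeR called 0 members, 0 genes higher and 0 lower (67 and 23 at an unadjusted p under 0.05), since the tumors' own differences then enter the spread. With doublets kept 203 and 201 genes were called, unthinned 1655 and 1308, with at least 2 UMIs of *Epcam* 185 and 216, and within cluster and tumor 112 higher. Leaving out 1 tumor gave 1 to 3 members, 176 to 482 genes higher and 168 to 522 lower, lowest without BP replicate 2 and highest without MP+BP. *Grhl1* turned to -0.0392 when thinned to 1500 UMIs and -0.0709 in the third draw. The members higher beside *Epcam* in every tumor numbered 8 unthinned, 1 when thinned to 1500 UMIs and 0 in the third draw. They numbered 4 over all draws and 2 to 6 on leaving out 1 tumor, 6 without MP. The share of all genes was not computed for these counts. *Elf3* turned to -0.0176 points in the second draw and *Elf5* to -0.0160 points when thinned to 1500 UMIs. Apart from the settings that change the cells, the tumors or the filter, the cause was not tested.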
